A study of Mus musculus with 7 samples.

Results

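Chemokines are small secreted proteins that bind receptors on white blood cells and set the direction in which those cells move. They are named by the spacing of their first cysteines (CC, CXC and CX3C), and their receptors signal through G proteins. In the liver, Kupffer cells, endothelial cells, stellate cells and hepatocytes can all make chemokines, and circulating monocytes, neutrophils and lymphocytes carry the receptors. The genes described here are those whose symbol in the platform annotation begins with Ccl, Cxcl, Ccr or Cxcr and a digit, together with Cx3cl1 and Cx3cr1. That gave 48 genes of the 16468 named genes on the array, 32 ligands and 16 receptors, read by 51 probes. All 48 were tested, since no filter on low values was applied.

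Liver RNA of 3 mice carrying a Zfp90 transgene (1 female and 2 males) and of 4 wild-type littermates (1 female and 3 males) was hybridised on 2-colour arrays, 1 array per animal in the deposited table. Zfp90 encodes a zinc finger protein. The common reference on each array was liver RNA pooled from 4 wild-type males and females. The array titles do not say whether the arrayed wild-type animals were in that pool. Strain, age, and the promoter and structure of the transgene are not given in the sources used here. All values below are log2 ratios of an animal to that pool, so they compare animals for 1 gene and say nothing of how one gene's level compares with another's. Signal over background is unknown for every probe, and a gene with little signal also reads near 0. Whether the liver markers were present cannot be read from ratios to a liver pool, in which 10 hepatocyte genes averaged -0.10 to 0.11 on the transgenic arrays and -0.10 to 0.07 on the wild-type arrays.

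In the gene that defines the groups, 1 array labelled wild type read within the range of the transgenic animals. Zfp90 read 0.34 in the transgenic female and 0.58 and 0.45 in the transgenic males, against 0.37 on the array labelled wild-type female, with -0.15, -0.29 and -0.11 in the wild-type males. With 1 female per genotype, a label error, a sex difference and variation between animals cannot be told apart here. The array labelled wild-type female is kept as wild type and is called by its label throughout. Results that rest on it are also given without it. The sign of the ratios was read from Kdm5d, a Y-linked gene, at -2.54 in the transgenic female, -3.22 on the array labelled wild-type female, with 0.14 to 0.66 in the 5 males. Over all probes 3 pairs of arrays correlated below -0.3 (r from -0.497 to -0.307), each a female with a wild-type male. Were the ratios read the other way round, the differences would change sign and their p would stay. Array medians over all probes lay between -0.01 and 0.03.

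Upstream sequence is shown for 3 members: Cxcl9 and Ccl20, which had the largest genotype differences, and Cxcl10, which like Cxcl9 encodes a ligand of the receptor Cxcr3. Capitals mark letters of 2 kinds: GGG and CC with any 5 bases between them, the frame of sites for NF-kappa B, and GAAA and GAAA with any 2 bases between them, the core of interferon-stimulated response elements. Each is the 250 bases before the gene's start, 5′ to 3′ on the gene's strand, from RefSeq (build GRCm38.p6).
Cxcl9, chr5:92328080-92328329, minus strand: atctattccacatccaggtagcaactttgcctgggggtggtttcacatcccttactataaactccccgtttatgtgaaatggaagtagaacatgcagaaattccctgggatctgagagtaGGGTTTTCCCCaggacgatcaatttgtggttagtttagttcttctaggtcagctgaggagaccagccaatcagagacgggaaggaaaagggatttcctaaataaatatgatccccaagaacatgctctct
Cxcl10, chr5:92348890-92349139, minus strand: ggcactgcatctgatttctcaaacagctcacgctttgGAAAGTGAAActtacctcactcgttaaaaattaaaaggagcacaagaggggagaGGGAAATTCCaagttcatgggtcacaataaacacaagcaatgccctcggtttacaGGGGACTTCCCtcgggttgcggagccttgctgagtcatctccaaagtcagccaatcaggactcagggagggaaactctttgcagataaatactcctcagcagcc
Ccl20, chr1:83116516-83116765, plus strand: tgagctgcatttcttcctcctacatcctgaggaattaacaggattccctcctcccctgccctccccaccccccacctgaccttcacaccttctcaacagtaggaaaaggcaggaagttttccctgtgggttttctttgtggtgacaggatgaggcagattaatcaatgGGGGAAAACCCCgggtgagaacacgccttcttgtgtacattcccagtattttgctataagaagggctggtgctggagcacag

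Both strands were searched, overlapping matches are joined, and the letters were chosen with these sequences in view. The NF-kappa B frame matched in Cxcl9, Cxcl10 and Ccl20, while the interferon response core matched in Cxcl10, 213 to 204 bases before the start. Of 32851 windows of the same length, 45.8% held the NF-kappa B frame and 2.98% the interferon response core. Of 40 windows that belong to 36 of the members, 23 held the first (57.5%) and 3 the second (7.5%). A match describes letters and does not show a bound site.

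No member passed the test of transgenic against wild type over all 7 animals. The model held genotype and sex and was fitted with limma to all 22218 features, with Benjamini-Hochberg adjustment and a threshold of 0.05. It called 0 of the 48 members, where it called 0% of all features, and the lowest adjusted p of a member was 0.704. At an unadjusted p under 0.05 there were 2 members, Ccl20 and Cxcl9, both higher in transgenic liver and 0 lower, a share of 4.17% where 6.91% of all features had such a p (3.82% higher and 3.1% lower). The members' differences, transgenic minus wild type, had a median of 0.02 against -0.01 for all features, and 28 were positive and 20 negative, a share of 58.3% positive against 48.2% of all features. In 0 members did all 3 transgenic animals lie above all 4 wild-type arrays, or all below, where 3.17% and 2.84% of features did. Ligands and receptors had like medians, 0.02 for the 32 ligands and 0.02 for the 16 receptors. Their extremes were unlike: ligands ran from -0.52 (Ccl11) to 1.22 (Cxcl9), receptors from -0.16 (Ccr9) to 0.19 (Cxcr5).

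**Figure D1:**
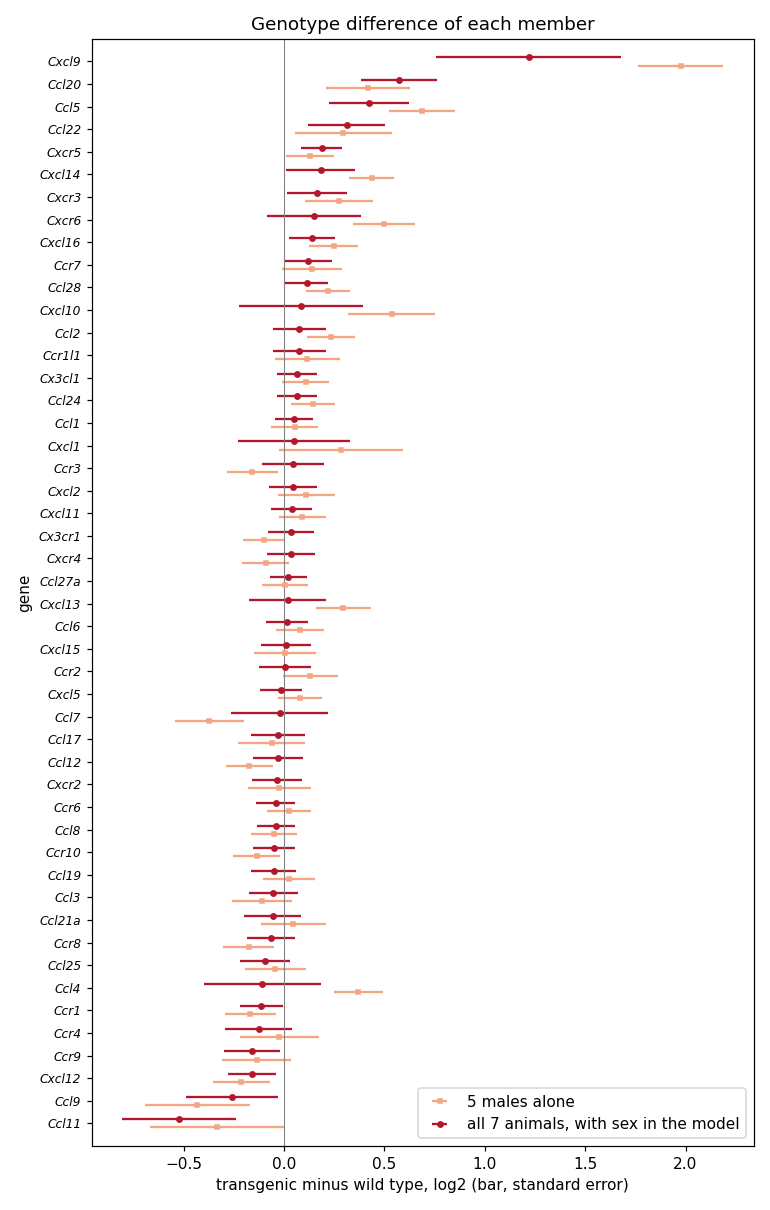
Difference of transgenic minus wild type on the log2 scale for each of the 48 genes, ordered by the fit over all 7 animals (circles), with the fit in the 5 males alone (squares); bars are standard errors. Cxcl9 stands at the top in both fits, at 1.22 and 1.98, and most other members lie near 0.

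The animals differed in a few members, mostly ligands, far more than in the rest of the family. The range over the 7 arrays had a median of 0.50 over the members and 0.46 over all features, from 0.23 (Ccl27a) to 2.89 (Cxcl9). It was over 1 in 9 members (18.8%) and in 10.4% of all features. Those 9 were Cxcl9, Cxcl10, Ccl5, Ccl4, Ccl7, Cxcl1, Ccl11, Cxcr6 and Cxcl13. The array labelled wild-type female was the highest of the 7 in 21 members (43.8%), against 15% of all features, and the lowest in 7 members, against 16.3% of features.

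**Figure D2:**
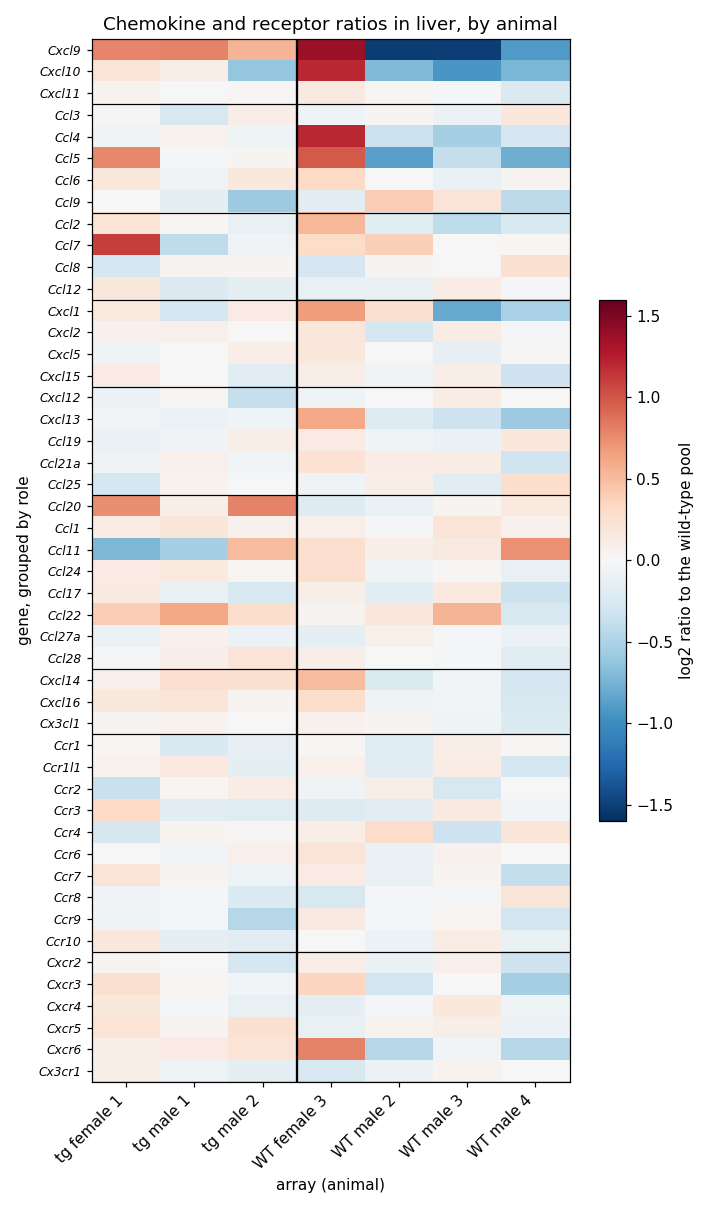
Log2 ratio to the wild-type pool of each of the 48 genes (rows, grouped by role, lines between roles) on each of the 7 arrays (columns; tg, transgenic; WT, wild type). Strong colours are few: Cxcl9, Cxcl10, Ccl4 and Ccl5 are high on the array labelled WT female 3 and low in the WT males, and Cxcl9 is also high in the 3 transgenic animals.

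The ligands of Cxcr3, a receptor of activated T cells and NK cells, held the widest spread. Cxcl9, a chemokine induced by interferon gamma, read 0.78 in the transgenic female and 0.80 and 0.54 in the transgenic males, against 1.38 on the array labelled wild-type female, with -1.52, -1.50 and -0.90 in the wild-type males. The transgenic animals lay close together, and the wild-type arrays lay on both sides of them. Its group means were 0.71 ± 0.15 (SD, n = 3) in transgenic mice and -0.64 ± 1.37 (SD, n = 4) in wild-type mice. The difference in the model with sex was 1.22 ± 0.46 (SE), 2.33-fold, with a limma adjusted p of 0.718. An exact two-sided permutation of the animals over 35 splits gave an unadjusted p of 0.143 for the plain difference of means, 1.34. Without the array labelled wild-type female the modelled difference was 1.98, with a limma adjusted p of 0.0809. Cxcl10, also induced by interferons, read 0.21 in the transgenic female and 0.11 and -0.62 in the transgenic males, against 1.21 on the array labelled wild-type female, with -0.70, -0.93 and -0.73 in the wild-type males. As with Cxcl9, the array labelled wild-type female was the highest and the wild-type males were the lowest, but the transgenic animals were spread between them (difference 0.09 ± 0.31 SE, adjusted p = 0.988). Cxcl11, a further ligand of this receptor, varied little, from 0.00 to 0.05 in transgenic mice and from -0.23 to 0.14 in wild-type mice. Cxcr3 itself read 0.25, 0.03 and -0.04 in the transgenic female and males, against 0.34 on the array labelled wild-type female, with -0.30, 0.01 and -0.54 in the wild-type males. Both females were above all males, and the genotypes overlapped (difference 0.16 ± 0.15 SE, adjusted p = 0.878).

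**Figure D3:**
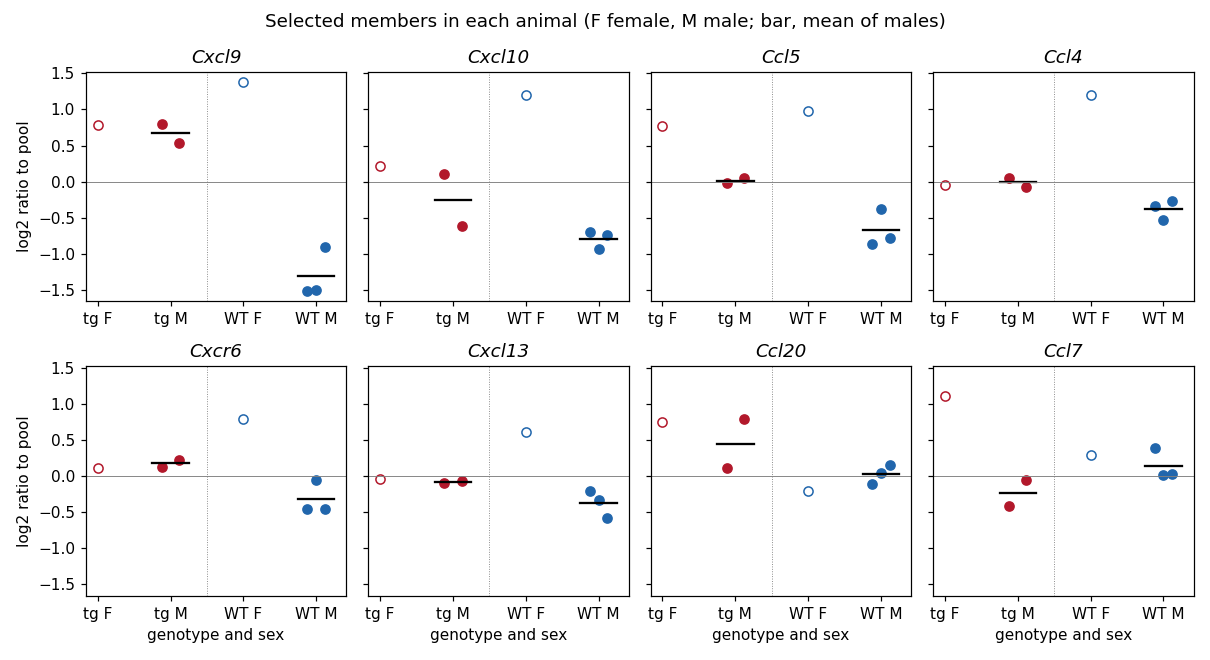
Log2 ratio to the pool of 8 members in each animal, by genotype and sex (open circles females, 1 per genotype; filled circles males; bars, means of 2 transgenic and 3 wild-type males). Cxcl9, Cxcl10, Ccl5, Ccl4, Cxcr6 and Cxcl13 share an order in which WT males are lowest on average and the array labelled WT female is highest, whereas Ccl20 and Ccl7 do not.

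Ccl3, Ccl4 and Ccl5 are inflammatory CC ligands that attract T cells, NK cells and monocytes. Ccl5 read 0.77 in the transgenic female and -0.02 and 0.04 in the transgenic males, against 0.98 on the array labelled wild-type female, with -0.87, -0.38 and -0.78 in the wild-type males. Within each sex the ratios went opposite ways by genotype: the transgenic males lay above all wild-type males, while the transgenic female lay below the other female. Over all 7 animals the difference was 0.42 ± 0.20 (SE), adjusted p = 0.739. For the plain difference of means, 0.52, an exact two-sided permutation over 35 splits gave an unadjusted p of 0.4. Ccl4 read -0.05 in the transgenic female and 0.05 and -0.07 in the transgenic males, against 1.20 on the array labelled wild-type female, with -0.34, -0.54 and -0.27 in the wild-type males, so 1 wild-type array stood far above and the 3 others below all transgenic animals. Ccl3, its neighbour in gene order, stayed within -0.25 to 0.10 in transgenic mice and -0.10 to 0.16 in wild-type mice. Ccl6 and Ccl9, further ligands of Ccr1 in mice, differed by 0.02 ± 0.10 and -0.26 ± 0.23 (SE). Ccr1 differed by -0.11 ± 0.11 (SE), with adjusted p = 0.882.

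The monocyte chemoattractants include Ccl2, which draws monocytes out of the bone marrow through Ccr2. Ccl2 read 0.22 in the transgenic female and 0.02 and -0.12 in the transgenic males, against 0.53 on the array labelled wild-type female, with -0.19, -0.41 and -0.24 in the wild-type males. The females were the highest, followed by the transgenic males and then the wild-type males, with no overlap between these steps. Ccr2 read -0.36 in the transgenic female and 0.03 and 0.12 in the transgenic males, against -0.06 on the array labelled wild-type female, with 0.09, -0.26 and 0.01 in the wild-type males, and did not follow its ligand. Ccl7 read 1.11 in the transgenic female alone, with -0.41 and -0.05 in the transgenic males, against 0.29 on the array labelled wild-type female, with 0.39, 0.01 and 0.03 in the wild-type males. Ccl8, read by 2 probes, was low in both females, at -0.29 and -0.27, against 0.01 to 0.24 in the 5 males. Ccl12 stayed within -0.22 to 0.18 over all 7 arrays. Genotype differences over all animals were 0.07 ± 0.13 for Ccl2, -0.02 ± 0.24 for Ccl7, -0.04 ± 0.09 for Ccl8 and 0.00 ± 0.13 for Ccr2 (SE), with adjusted p of 0.965 or more for each.

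Neutrophils are drawn mainly by ligands of Cxcr2. Cxcl1 read 0.15 in the transgenic female and -0.28 and 0.13 in the transgenic males, against 0.67 on the array labelled wild-type female, with 0.25, -0.81 and -0.51 in the wild-type males. This was the ligand of the group with the widest spread, and the wild-type arrays enclosed the transgenic ones. Cxcl2 stayed between 0.01 and 0.08 in transgenic mice and between -0.28 and 0.18 in wild-type mice, and Cxcr2 between -0.27 and 0.04 and between -0.33 and 0.11. Cxcl5 and Cxcl15 differed by -0.01 ± 0.10 and 0.01 ± 0.12 (SE). In these 5 genes the genotypes overlapped, with adjusted p from 0.986 to 0.998.

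Homing chemokines guide lymphocytes into lymphoid tissue or hold stem cells in the marrow. Cxcl13, the B-cell attractant of lymphoid follicles, read -0.04 in the transgenic female and -0.09 and -0.07 in the transgenic males, against 0.61 on the array labelled wild-type female, with -0.21, -0.33 and -0.59 in the wild-type males. The 3 transgenic values were nearly equal and lay inside the wild-type spread. Cxcr5, its receptor on B cells, read 0.22, 0.05 and 0.25 in the transgenic female and males, against -0.11 on the array labelled wild-type female, with 0.05, 0.10 and -0.10 in the wild-type males (difference 0.19 ± 0.10 SE, adjusted p = 0.760). Cxcl12, which retains cells through Cxcr4, read -0.10, 0.02 and -0.37, against -0.06 on the array labelled wild-type female, with 0.00, 0.12 and 0.00 in the wild-type males. Only transgenic male 2 lay apart in Cxcl12 (difference -0.16 ± 0.12 SE, adjusted p = 0.830), and without this animal the difference was -0.024. Cxcr4 ran from -0.12 to 0.17 in transgenic mice and from -0.16 to 0.17 in wild-type mice. For the Ccr7 axis, which leads dendritic cells and naive T cells to lymph nodes, Ccl19 ran from -0.10 to 0.11 and from -0.11 to 0.17, Ccl21a from -0.08 to 0.08 and from -0.32 to 0.23, and Ccr7 from -0.08 to 0.20 and from -0.38 to 0.13, transgenic before wild type each time. Ccl21a has near-identical gene copies that its probe may also read. Ccl25 and its receptor Ccr9, known from gut homing, differed by -0.10 ± 0.12 and -0.16 ± 0.14 (SE).

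Ccl20 had the smallest unadjusted p of the family and was unlike the ligands above. It encodes the ligand of Ccr6, a receptor of Th17 cells and B cells. Ratios were 0.75 in the transgenic female and 0.11 and 0.79 in the transgenic males, against -0.20 on the array labelled wild-type female, with -0.10, 0.05 and 0.16 in the wild-type males. Of the transgenic animals 2 stood above all wild-type arrays, and transgenic male 1 overlapped with them. Means were 0.55 ± 0.38 (SD, n = 3) in transgenic mice and -0.03 ± 0.16 (SD, n = 4) in wild-type mice. The difference in the model with sex was 0.57 ± 0.19 (SE), 1.49-fold, with a limma adjusted p of 0.704. For the plain difference of means, also 0.57, an exact two-sided permutation over 35 splits gave an unadjusted p of 0.0571. Ccl20 was picked for its small p in these same values, so the permutation adds no independent support. Ccr6 ran from -0.05 to 0.08 in transgenic mice and from -0.10 to 0.21 in wild-type mice.

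Among the remaining CC ligands the groups overlapped. Ccl11, an eosinophil attractant, read -0.72 in the transgenic female and -0.53 and 0.51 in the transgenic males, against 0.26 on the array labelled wild-type female, with 0.10, 0.14 and 0.73 in the wild-type males. The transgenic males disagreed in sign (difference -0.52 ± 0.28 SE, adjusted p = 0.755), and the difference was -0.90 without transgenic male 2, -0.28 without transgenic male 1 and -0.33 without either female. Ccl22, which attracts regulatory T cells through Ccr4, read 0.39, 0.62 and 0.28 in the transgenic female and males, against 0.05 on the array labelled wild-type female, with 0.19, 0.54 and -0.26 in the wild-type males (difference 0.31 ± 0.19 SE, adjusted p = 0.788). Ccl17, which shares that receptor, differed by -0.03 ± 0.13 (SE), and Ccr4 by -0.13 ± 0.17. Ccl24, an eotaxin, differed by 0.06 ± 0.10, and Ccr3, the eotaxin receptor, by 0.04 ± 0.15. Ccl1 and its receptor Ccr8 differed by 0.05 ± 0.10 and -0.07 ± 0.12. The epithelial ligands Ccl27a and Ccl28 differed by 0.02 ± 0.09 and 0.11 ± 0.11, and their receptor Ccr10 by -0.05 ± 0.11. Ccr1l1, a relative of Ccr1, differed by 0.07 ± 0.13.

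Cxcl16 and Cx3cl1 are made as membrane-anchored proteins that can be shed. Cxcl16 read 0.16, 0.21 and 0.04 in the transgenic female and males, against 0.28 on the array labelled wild-type female, with -0.07, -0.04 and -0.26 in the wild-type males. Its 2 probes disagreed, since one stayed between -0.09 and 0.23 over all arrays and the other ran from 0.10 to 0.47 in transgenic mice and from -0.50 to 0.33 in wild-type mice. The first of these probes alone gave a genotype difference of -0.06, opposite in sign to the 0.14 ± 0.11 (SE) of their mean. Cxcr6, the receptor of Cxcl16 on T cells and NKT cells of the liver sinusoids, read 0.11 in the transgenic female and 0.13 and 0.22 in the transgenic males, against 0.79 on the array labelled wild-type female, with -0.46, -0.05 and -0.45 in the wild-type males. The transgenic animals sat together between the array labelled wild-type female and the wild-type males. Cx3cl1 ran from -0.01 to 0.06 in transgenic mice and from -0.22 to 0.07 in wild-type mice, and Cx3cr1, its receptor on monocytes, from -0.14 to 0.10 and from -0.25 to 0.05. Cxcl14, a ligand made by epithelia, read 0.08 in the transgenic female and 0.27 and 0.25 in the transgenic males, against 0.51 on the array labelled wild-type female, with -0.23, -0.05 and -0.26 in the wild-type males.

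Males alone, 2 transgenic against 3 wild type, gave larger differences in several of these genes. Because each genotype has 1 female, leaving out either female from the model with sex gives the same differences as the males alone. Limma called 0 of the 48 members in the males, where it called 0.0315% of all features. At an unadjusted p under 0.05 there were 6 members (12.5%; 6.96% of all features), all higher in transgenic males, where 3.92% of features were higher and 3.04% lower. A positive difference was found in 30 members (62.5%; 44.6% of features), 23 of 32 ligands with a median of 0.09 and 7 of 16 receptors with a median of -0.02. The 6 with such a p were Cxcl9 (1.98 ± 0.21 SE, 3.93-fold, adjusted p = 0.0809), Ccl5 (0.69 ± 0.17), Cxcl14 (0.44 ± 0.11), Cxcr6 (0.50 ± 0.16), Ccl4 (0.37 ± 0.12) and Cxcl10 (0.54 ± 0.22), with adjusted p from 0.396 to 0.704 for the 5 after Cxcl9. Both transgenic males lay above all 3 wild-type males in 11 members (22.9%), where 11.2% of all features did, and below them in 4 (11.4% of features). The 11 were those 6 with Ccl2, Ccl24, Ccl28, Cxcl13 and Cxcl16. The 4 below were Ccl7, Ccl12, Ccr8 and Ccr10. Without wild-type male 4, Cxcl9 passed the threshold in the males at an adjusted p of 0.0108 with a difference of 2.18, the 1 member to do so, in a fit that called 0.248% of features (55, against 7 with all 5 males). Leaving out each of the other 4 males gave Cxcl9 adjusted p from 0.104 to 0.499.

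In the females the same contrast ran the other way for most members. With 1 animal per genotype it has no replicate check. The transgenic female minus the array labelled wild-type female was -0.59 for Cxcl9, -0.996 for Cxcl10, -1.26 for Ccl4, -0.21 for Ccl5, -0.69 for Cxcr6, -0.65 for Cxcl13 and -0.43 for Cxcl14. Ccl20, at 0.95, went the same way as in the males (0.42 ± 0.21 SE). Signs in females and in males were opposite in 34 of 48 members (70.8%), where they were opposite in 50% of all features. The transgenic female lay above the other female in 18 members, against 52.2% of features. The test of the difference itself, the interaction of genotype and sex, takes its spread from the males and called 0 members, where it called 0.072% of all features. At an unadjusted p under 0.05 there were 10 members (20.8%; 8.42% of features), of which 2 were positive (3.93% of features) and 8 negative (4.49% of features), led by Ccl4 (-1.63 ± 0.23 SE, adjusted p = 0.136) and Cxcl9 (-2.57 ± 0.39, adjusted p = 0.161). A positive interaction was found in 18 members, where 52.4% of features had one. Without wild-type male 4 the interaction of Cxcl9 passed, at -2.77 and an adjusted p of 0.0181, in a fit that called 0.347% of features (77, against 16 with all animals). Leaving out each of the other 4 males gave it adjusted p from 0.151 to 0.485.

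**Figure D4:**
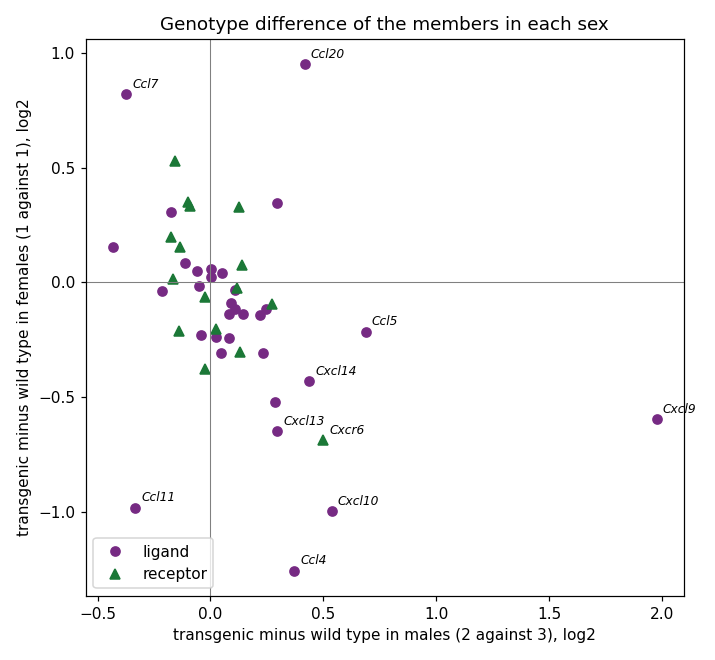
Genotype difference (transgenic minus wild type, log2) in the females (vertical axis, 1 animal against 1) and in the males (horizontal axis, means of 2 against 3) for 32 ligands (circles) and 16 receptors (triangles). Cxcl9, Cxcl10, Ccl5, Ccl4, Cxcl13, Cxcl14 and Cxcr6 lie at the lower right, positive in males and negative in females, and Ccl20 lies at the upper right.

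Females read higher than males in several of these ligands, without a call. In the model with genotype, 34 of the 48 members had a positive difference of females minus males (70.8%; 52.3% of all features), with a median of 0.13 against 0.01 for all features. Limma called 0 members, where it called 0.351% of features, and the lowest adjusted p was 0.0962, for Ccl5, which averaged 0.87 in the 2 females and -0.40 in the 5 males (difference 1.23 ± 0.22 SE, 2.35-fold). An unadjusted p under 0.05 was reached by 9 members (18.8%; 9.23% of features). Of these 8 were higher in females (Ccl5, Ccl2, Cxcl10, Cxcl9, Cxcr3, Ccl7, Ccl4 and Cxcl13; 3.65% of features), and 1, Ccl8, was lower (5.57% of features; -0.35 ± 0.10 SE, adjusted p = 0.320). Ccl2 differed by 0.55 ± 0.14 (SE, adjusted p = 0.262), Cxcl10 by 1.27 ± 0.34 (adjusted p = 0.270) and Cxcl9 by 1.47 ± 0.50 (adjusted p = 0.417). Both females lay above all males in 9 members, where 6.04% of features did, and below in Ccl8 alone (6.83%). These values rest on which female is used. Without the transgenic female, the array labelled wild-type female is the only female, and the spread comes from the 5 males alone. Calls then rose over the whole array, to 1.14% of features (254, against 78 with all animals). Among the members 4 were called, Cxcl9 (2.68, adjusted p = 0.011), Ccl4 (1.58, adjusted p = 0.0108), Cxcl10 (1.995, adjusted p = 0.0304) and Ccl5 (1.65, adjusted p = 0.024). These p-values assume that the lone female would vary like the males. Without the array labelled wild-type female it called 0, and the difference of Cxcl9 was 0.11.

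In Cxcl9 the array labelled wild-type female lay above all transgenic animals, and these above all wild-type males. That order, described after the values were seen, was found in 10 of the 48 members and in 1.67% of all features. Among 14 macrophage and Kupffer cell genes, 6 showed it (Marco, C1qc, Cd5l, Clec4f, Timd4 and Vsig4). It was not counted in the other lists, so it cannot be called particular to macrophage genes. H2-Aa, H2-Ab1, Cd83 and Itgax of the monocyte and dendritic cell list also showed it. So did Il2rb, Cd2 and Klrd1 of the T and NK cell list. Itgal, Itgb7, Vcam1, Rac2, Tnf and Ifng were further genes with this order. The mean log2 ratio of 14 macrophage and Kupffer cell genes was 0.23 to 0.47 in transgenic mice, against 0.68 on the array labelled wild-type female, with from -0.61 to -0.14 in the wild-type males. Of the 14, 11 had a positive genotype difference and 3 a negative one, with a median of 0.27 and 0 called (adjusted p of 0.475 or more), and in the males 12 were positive with a median of 0.56 and 0 called. In bulk liver RNA, more cells of a type and more RNA per cell cannot be told apart. The scavenger receptor Marco read 1.15, -0.02 and 0.10 in the transgenic female and males, against 1.29 on the array labelled wild-type female, with -1.67, -1.84 and -1.31 in the wild-type males. Cd163, a haemoglobin scavenger receptor with the smallest genotype p of the list, had another order, with 1.26, 0.79 and 1.34 in the transgenic female and males, against 0.16 on the array labelled wild-type female, with 0.00, 0.14 and -0.49 in the wild-type males. In C1qb and Cd68 that array read -0.06 and -0.09, inside the values of the wild-type males for C1qb and below them for Cd68. For 13 T and NK cell genes the mean was -0.01 to 0.18 in transgenic mice, against 0.31 on the array labelled wild-type female, with -0.23 to -0.07 in the wild-type males, with 7 positive and 6 negative genotype differences and 0 called. Within that list the T-cell antigen receptor subunit Cd3e stayed between -0.13 and 0.19 on all 7 arrays, while the interleukin receptor chain Il2rb read 0.44, 0.62 and 0.57 in transgenic mice, against 0.999 on the array labelled wild-type female, with -0.85, -0.52 and -0.52 in the wild-type males. Neutrophil genes (10) averaged -0.21 to -0.01 in transgenic mice, against 0.29 on the array labelled wild-type female, with -0.23 to -0.22 in the wild-type males. Monocyte and dendritic cell genes (11) averaged 0.00 to 0.28, against 0.25 and -0.24 to -0.09 in the same groups. Their part in the ligands' values was not tested.

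**Figure D5:**
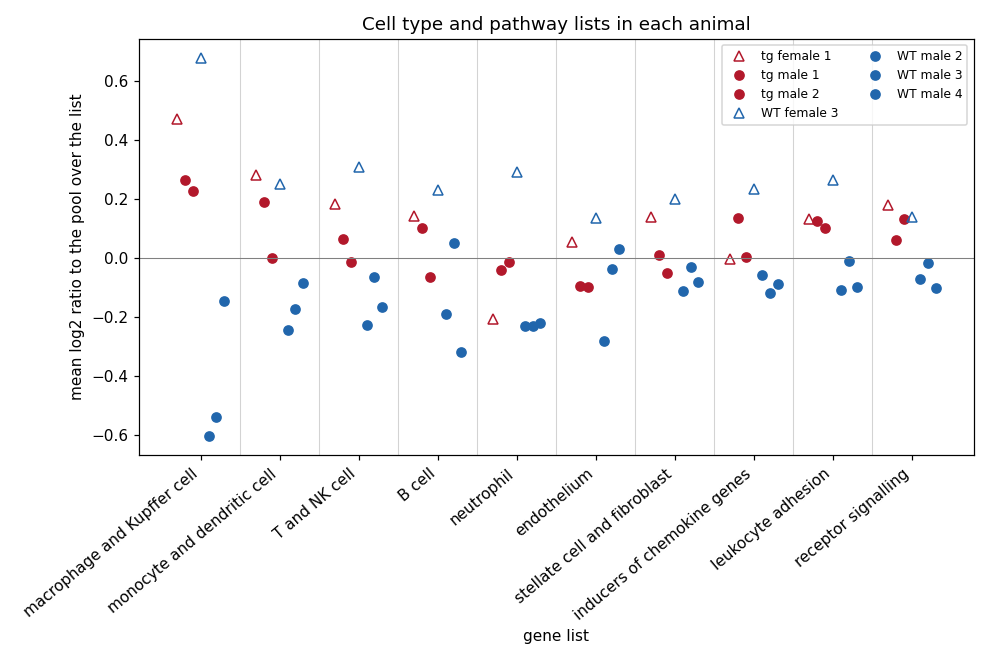
Mean log2 ratio to the pool over the measured genes of 10 lists (horizontal axis) in each animal (triangles females, circles males; red transgenic, blue wild type). In the macrophage, T and NK cell, neutrophil, inducer and leukocyte adhesion lists the 3 wild-type males are lowest. In these lists the transgenic animals lie above them and the array labelled WT female is highest.

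Genes that act upstream or downstream of chemokines did not pass either. Of 24 inducers of chemokine genes, 17 had a positive and 7 a negative genotype difference, with a median of 0.02 and 0 called. The endotoxin receptor Tlr4 differed by 0.40 ± 0.14 (SE), Tnfrsf1a, a receptor of tumour necrosis factor, by -0.23 ± 0.09, Il1b by -0.37 ± 0.15 and the interferon regulator Irf7 by 0.67 ± 0.34. Ifng, the inducer of Cxcl9, read -0.04, 0.22 and -0.03 in the transgenic female and males, against 0.48 on the array labelled wild-type female, with -0.11, -0.13 and -0.08 in the wild-type males, and Irf1, a factor it induces, overlapped between the genotypes. For 25 genes of receptor signalling the split was 15 to 10, with a median of 0.07 and 0 called. The G protein regulator Rgs16 differed by 1.40 ± 0.54 (SE), the GTPase Rac2 by 0.58 ± 0.26, Gnai2 by 0.21 ± 0.09 and Elmo1 by 0.38 ± 0.22. Of 15 adhesion genes 10 were positive and 5 negative, with a median of 0.05 and 0 called, and the integrin chain Itga4, at 0.56, 0.43 and 0.47 in transgenic mice, against 0.03 on the array labelled wild-type female, with 0.24, -0.05 and -0.17 in the wild-type males, showed no overlap between genotypes (difference 0.47 ± 0.12 SE, adjusted p = 0.630). Itgb1 differed by -0.56 ± 0.21, Itgal by 0.55 ± 0.30 and Itgb7 by 0.26 ± 0.15. Of 13 other ligands and atypical receptors 7 were positive and 6 negative, with a median of 0.00 and 0 called, led by the scavenging receptor Ackr1 (0.35 ± 0.18 SE).

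Chemokine genes lie in clusters. By the gene order of GRCm38.p6 Ccl5, Ccl9, Ccl6, Ccl3 and Ccl4 follow each other with no other protein-coding gene between. In the males Ccl5 and Ccl4 had positive differences of 0.69 and 0.37, whereas Ccl9 and Ccl3 had negative ones of -0.43 and -0.11 and Ccl6 stood at 0.08. A second run holds Ccl2, Ccl7, Ccl11, Ccl12, Ccl8 and Ccl1, where male differences ran from -0.37 (Ccl7) to 0.23 (Ccl2). The run of Cxcl5, Cxcl15, Cxcl1 and Cxcl2 had positive male differences throughout, from 0.00 to 0.28, and the pair Ccl19 and Ccl21a had 0.03 and 0.05. Whether neighbours are more alike than other members was not tested. A run of receptor genes holds Cxcr6, Ccr1, Ccr1l1, Ccr3 and Ccr2, and in it Cxcr6, at 0.50, stood above the other 4, which ran from -0.17 to 0.13.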

How the data were processed

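Liver RNA of 7 mice was measured on 2-colour arrays, and the values the authors deposited are log10 ratios of 23574 probes in each animal. Per the labels' protocols, total RNA came from DNase-treated spin columns and was amplified with aminoallyl labelling, the animal was in Cy5 and the pool in Cy3, and per the series' design text dyes were swapped. How swaps were combined, the background correction and the normalization are not given in the sources used here. The log10 base was read from the values, which end at exactly -2 and 2. Intensities were not used here, so depth and detection are unknown, and 7 arrays limit the precision.

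Ratios were multiplied by 3.32 to give log2. GEO's platform annotation named 17824 probes with 1 symbol, 50 with several and 5700 with none. NCBI's table for GRCm38.p6 gave a newer symbol for 0 of them. Probes of a gene were averaged, giving 22218 features. The 3 members with 2 probes are Ccl8, Ccl12 and Cxcl16, and 2 probes shared by Ccl21 copies were left out. Limma 3.58.1 (R 4.3.3), lmFit and eBayes, was fitted over all features with genotype and sex, in the 5 males with genotype, and with the interaction, adjusted by Benjamini-Hochberg and called at 0.05. Replicates are separate animals, the wild-type ones labelled as littermates, and p-values measure the spread between them. The members and lists were chosen with earlier results of these data known. Values on all arrays, or their ranges, are given for the 8 members with the smallest p for genotype, the 4 for sex, fixed ligand and receptor pairs, and Ccl4, Ccl7 and Cxcl14, chosen after their values were seen. Marco, Cd163, C1qb, Cd68, Cd3e, Il2rb and Ifng were likewise picked from their lists afterwards or as the smallest p. The fits were run on simulated ratios with planted changes and independent noise, to check the estimated size of a change. How many planted changes they called is not reported here. Alternatives were centring, quantile normalization, single probes, the named genes only, the 50% of features whose ratios were largest, a robust variance model, models without the other term, and each animal left out.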

Additional observations from a re-analysis of the deposited data

Results flagged for a closer look

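Among the 4 wild-type arrays, 1 array stood far from the others in 2 of the 48 members. Cxcl10 read 1.21 on the array labelled wild-type female. Its gap to the nearest wild-type array was 0.894 of the group's whole range. Ccl4 read 1.20 on the same array, with a gap of 0.844 of the range. Both gaps are past Dixon's 95% critical value for 4 samples, which chance passes in about 1 of 20 groups. The 2 members are 4.17% of the 48, against 5.89% of all features, so the count is no higher than over the whole array. The wild-type group mixes 1 female with 3 males, so animal, sex and label cannot be told apart in these gaps.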

How the results depend on the processing

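The count of 0 members called for genotype was the same under every alternative run, including each animal left out. For sex it ran from 0 to 4 with 1 animal left out (4 without the transgenic female), for the males from 0 to 1 and for the interaction from 0 to 1 (1 without wild-type male 4, Cxcl9 both times), and it was 0 under all other alternatives. The fits that called members also called more features, 254 for sex against 78, 55 for the males against 7 and 77 for the interaction against 16. The interaction could not be fitted without either female. The median genotype difference of the members ran from -0.01 to 0.07 with 1 animal left out. Members without overlap between genotypes numbered 0 with all animals. With 1 left out they numbered from 0 to 11 (11 without the array labelled wild-type female, the highest of 7 in 21 members). The share of all features was not computed for those sets, and fewer arrays overlap less readily. No separation of the genotypes is read from these counts. Members with a positive difference numbered 28, and from 22 to 30 with 1 left out. Keeping the 50% of features whose ratios were largest left 25 members, 15 of them positive.

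Sign turned in 3 further cases: Cxcl16 on its first probe (-0.057), Ccl8 after quantile normalization (0.017) and Ccr2 without sex in the model (-0.013). With 1 animal left out, genotype differences crossed 0 in these ranges: Ccl2 -0.025 to 0.23, Cxcl10 -0.29 to 0.54, Ccl8 -0.070 to 0.0071, Ccr2 -0.081 to 0.13, Cxcr4 -0.093 to 0.10, Cxcl13 -0.090 to 0.29, Cxcr6 -0.0016 to 0.50, Cxcl1 -0.16 to 0.28, Cxcl2 -0.039 to 0.11, Cxcr2 -0.12 to 0.040, Ccr6 -0.10 to 0.026, Ccl19 -0.13 to 0.025, Ccl21a -0.17 to 0.046 and Cx3cr1 -0.098 to 0.1. The sex difference of Ccl4 ran from -0.042 to 1.58. That was 30 of the values with 1 animal left out, 282 kept direction and call, and 6 kept direction and passed the threshold. No paired analysis was possible because the genotypes share only 1 replicate number in the labels. Signal over background, which would limit dim probes, is not known here.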
